A study of Mus musculus with 10 samples.

Results

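The colony-stimulating factor (CSF) genes examined here are the growth factors Csf1 and Csf2 and the receptor genes Csf1r, Csf2rb and Csf3r. They were taken by gene symbol from an immune panel, 5 of its 545 endogenous genes, and all 5 were measured in every pup. The cells were microglia, the resident macrophages of the brain, sorted from the hippocampus of male Balbc mice at postnatal day 14. The study set 5 control pups (numbers 1, 18, 40, 52 and 69) against 5 pups under brief daily separation (BDS; numbers 11, 17, 24, 38 and 59). BDS pups were parted from the dam for 15 min a day on a schedule running from postnatal day 1 to 21, so at day 14 they were still on it. How control pups were handled is not given in the sources used here. Every pup came from another litter, no gene was altered in either group, and each pup filled 1 lane of the nCounter instrument, an assay that tallies colour-coded probes hybridised to their transcripts.

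CSF receptors pass growth and survival signals to myeloid cells. Csf1r is a receptor tyrosine kinase that binds the ligands CSF-1, the product of Csf1, and IL-34, and microglia depend on it for survival. Csf2 encodes GM-CSF, and Csf2rb the beta chain that GM-CSF, IL-3 and IL-5 receptors share and that signals through JAK2 and STAT5. Csf3r encodes the receptor of G-CSF and is best known from neutrophils. Mice carry a second, closely related beta chain gene, Csf2rb2, next to Csf2rb, and since probe sequences were not used here, binding of its transcript to the Csf2rb probe cannot be told apart from Csf2rb signal.

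On mouse build GRCm38.p6, Csf1 lies on chromosome 3, Csf2 on chromosome 11, Csf2rb on chromosome 15 and Csf3r on chromosome 4, and the panel's RefSeq transcript for each of the 5 members matched that gene when version numbers were left off. The 250 bases before the annotated start are shown from the RefSeq promoter table for Csf1 and Csf3r, the members whose values differed most between the groups, one on the higher and one on the lower side in BDS. They are chr3:107760470-107760719 on the minus strand for Csf1 and chr4:126024409-126024658 on the plus strand for Csf3r, each written 5′ to 3′ along its gene with matches to the searched motifs in capitals.
Csf1: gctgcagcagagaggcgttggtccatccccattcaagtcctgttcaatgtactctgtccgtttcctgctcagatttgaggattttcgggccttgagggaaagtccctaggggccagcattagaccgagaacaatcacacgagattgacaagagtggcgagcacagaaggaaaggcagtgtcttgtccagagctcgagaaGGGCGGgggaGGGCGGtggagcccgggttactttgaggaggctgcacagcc
Csf3r: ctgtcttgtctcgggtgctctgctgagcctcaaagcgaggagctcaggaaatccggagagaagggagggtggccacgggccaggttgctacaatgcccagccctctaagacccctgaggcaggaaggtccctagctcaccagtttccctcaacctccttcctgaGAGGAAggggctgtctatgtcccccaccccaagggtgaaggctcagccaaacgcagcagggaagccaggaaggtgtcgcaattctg
Both strands were searched for 3 motifs, the GC box (GGGCGG), a PU.1-type site of ETS factors (GAGGAA) and the TATA box (TATAAA). The shorter letters GGAA were not searched for, and they also occur unmarked in both windows. The Csf1 window held GC boxes from 51 to 46 and from 41 to 36 bases before the start, and the Csf3r window held the PU.1-type site from 86 to 81. No match overlapped another, and neither window held the letters of the TATA box. Of 32851 RefSeq promoter windows of that length, 32.7% held the GC box, 23.3% the PU.1-type site and 12.4% the TATA box. These matches describe the letters only, and nothing bound there was measured.

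Lanes differed in depth, and this bears on every value below. The geometric mean of 6 housekeeping genes (Alas1, Gapdh, Oaz1, Polr1b, Sdha and Tbp), by which counts were scaled, ran from 113 raw counts in control 52 to 1254 in BDS 17. On the log2 scale BDS lanes stood 1.23 higher (n = 5 each; two-sided exact permutation test, p = 0.0873 over 252 assignments). Polr1b itself lay under the negative-control limit in control 52 (6 counts against a limit of 24.4) and in control 69 (13 against 13.9). A lane's limit lies 2 SD above the mean of its 8 negative probes. Microglial markers were measured as a check of the label: all 12 markers on the panel, Itgam highest, were above the limit often enough to be tested, and they made up 25.6% to 27.2% of endogenous counts in control lanes and 25.2% to 28.2% in BDS lanes.

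Csf1 was the member whose values separated the groups. Normalized counts in control pups were 114 in pup 1, 81.0 in pup 18, 119.6 in pup 40, 61.2 in pup 52 and 114 in pup 69. In BDS pups they were 132 in pup 11, 241 in pup 17, 186 in pup 24, 202 in pup 38 and 176 in pup 59. Every BDS pup thus stood above every control pup by these values, with BDS 11 and control 40 the closest. Such a separation, with BDS higher, was seen in 3.53% of the 283 genes tested. The separation takes no account of counting error. BDS 11 held 109 raw counts (exact Poisson 95% interval 89.5 to 131). Control 1, a lane of similar depth (housekeeping signal 461 beside 477), held 91 (73.3 to 112), and these intervals overlap. The order of BDS 11 and control 1 is thus not settled by these counts, and control 40 stood closer still to BDS 11. The group means were 97.9 ± 25.6 in control and 187 ± 39.6 in BDS (SD, n = 5 each), and the log2 fold change was 0.91 ± 0.24 (SE; adjusted p = 0.0642, edgeR quasi-likelihood test with Benjamini-Hochberg adjustment), which misses the 0.05 threshold. Leaving out control 40 or BDS 11, the closest pair, must widen the gap, and brought the edgeR adjusted p to 0.0305 and 0.0297. The edgeR unadjusted p was then 0.00193 and 0.00103, beside 0.00191 with all pups, and 48 and 19 genes of the panel passed the threshold. With any other pup left out the edgeR adjusted p for Csf1 ran from 0.0585 (without control 52) to 0.189 (without BDS 17).

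Csf1 counts were small. Raw counts were 12 in control 52 (exact Poisson 95% interval 6.20 to 21.0, counting error only), where the negative probes averaged 11.1, so that lane gives no level for Csf1 above background. In the other lanes raw counts ran from 42 in control 69 to 524 in BDS 17, all above the limit. Without control 52 the log2 fold change was 0.81, and with the housekeeping signal of the lane as a covariate it was 0.65 (edgeR adjusted p = 0.369). The groups stayed apart under 10 of 12 scalings, the exceptions being positive controls alone and all 14 housekeeping genes. Fold change minus the median of all tested genes stayed between 0.77 and 0.83 over the 12. A change of scaling moves all genes nearly alike, so this difference could hardly vary and does not test the fold change. In the authors' deposited table, which scales to 5 housekeeping genes, the Csf1 ratio of BDS to control means was 1.69 with an unadjusted p of 0.0042, from means of 247 and 146. That table lists Csf1 as above background in 100% of samples, control 52 included, where the limit used here put it at background.

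**Figure D1:**
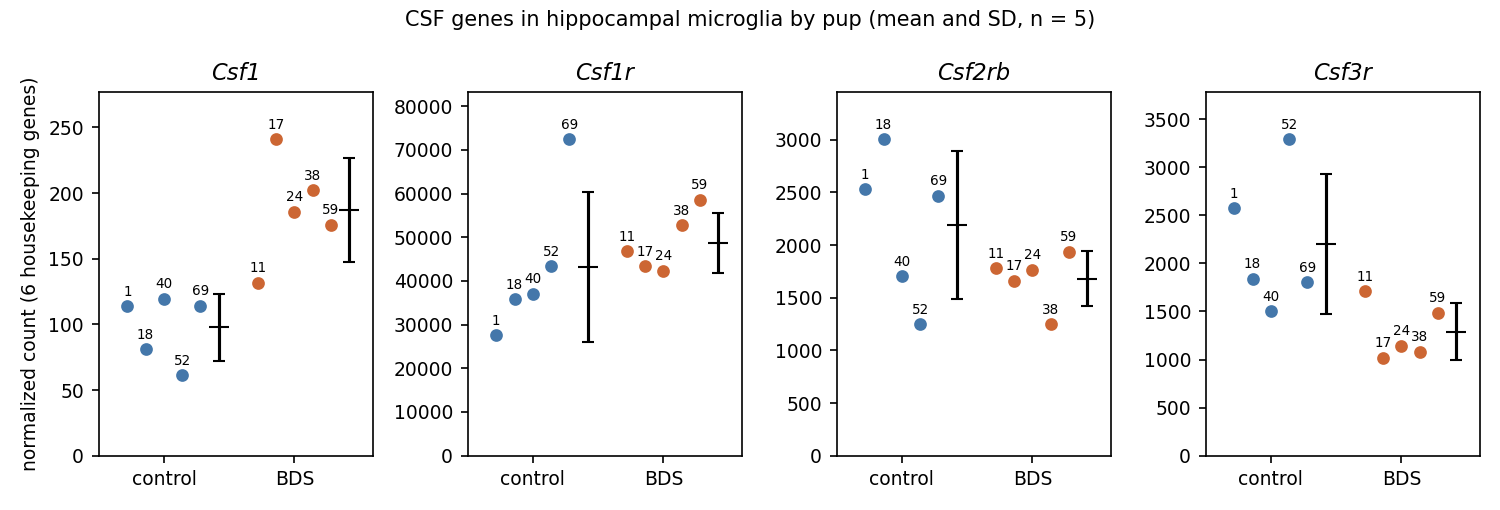
Normalized counts (y axis, counts scaled to 6 housekeeping genes, from 0) of Csf1, Csf1r, Csf2rb and Csf3r in control and BDS pups. Each point is 1 pup with its number, and the bar gives the mean and SD of 5 pups. Csf1 runs from 61.2 to 119.6 in control pups and from 132 to 241 in BDS pups without overlap, while the groups overlap in the other 3 genes.

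Csf1r, the receptor that Csf1 product binds, spread widely in control pups and little in BDS pups. Its normalized counts were 27551 in control 1, 35769 in control 18, 37054 in control 40, 43314 in control 52 and 72393 in control 69. BDS pups held 46807 (pup 11), 43326 (pup 17), 42319.8 (pup 24), 52755 (pup 38) and 58567 (pup 59). All BDS values fall inside the control range, whose top is set by control 69 alone: of the other 4 control pups only control 52 reached the BDS range. The coefficient of variation was 39.9% in control and 14.0% in BDS, beside a median over the 283 tested genes of 31.2% and 19.9%.

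The mean of Csf1r was 43216 ± 17249 in control and 48755 ± 6836 in BDS (SD, n = 5 each). On the log2 scale BDS differed from control by 0.17 ± 0.22 (SE), with an edgeR adjusted p of 0.607. Without control 69 the fold change was 0.44 (edgeR adjusted p = 0.167), and without control 52 and control 69 it was 0.54 ± 0.16 (SE; edgeR adjusted p = 0.0953). The same sign held with lane depth as a covariate, at 0.45 (edgeR adjusted p = 0.372). Scaled without Sdha, it turned to -0.024. The authors' deposited table gives a ratio of 0.98 for Csf1r, with an unadjusted p of 0.9367. As bulk measurements of sorted cells, these counts cannot tell fewer cells of a type from less RNA per cell.

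Csf3r, the G-CSF receptor gene, lay on the other side. Control pups held 2575 normalized counts (pup 1), 1839 (pup 18), 1502 (pup 40), 3289 (pup 52) and 1803 (pup 69). BDS pups held 1709 (pup 11), 1021 (pup 17), 1145 (pup 24), 1079.8 (pup 38) and 1487 (pup 59). Of the 5 BDS pups, 4 were below the lowest control, and BDS 11 stood above control 40, the deepest control lane. The means were 2202 ± 725 and 1288 ± 297 (SD, n = 5 each), and the log2 fold change was -0.77 ± 0.24 (SE; edgeR adjusted p = 0.0890). Without control 52, the highest pup and the shallowest lane, it was -0.58 (edgeR adjusted p = 0.0878), and with lane depth as a covariate -0.375 (edgeR adjusted p = 0.372). Leaving out control 40 or BDS 11, the pups that overlapped, must widen the gap, and gave -0.88 and -0.89 (edgeR adjusted p = 0.0305 and 0.0420). Over the whole panel 48 and 19 genes then passed an adjusted p of 0.05. With any other pup left out the edgeR adjusted p for Csf3r ran from 0.0878 to 0.202 (without BDS 17). The authors' deposited table gives a ratio of 0.51 for Csf3r, with an unadjusted p of 0.0292.

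Raw counts of Csf3r followed lane depth less than those of the other members. From the lowest to the highest lane they spanned 4.28 times (645 to 2763), while the housekeeping mean spanned 11.1 times, Csf1r 11.99 times, Csf2rb 14.8 times and Csf1 43.7 times. The median span over the tested genes was 14.8. Neutrophils, in which Csf3r is best known, were looked for through 6 markers on the panel. None had enough lanes above the limit for a test, with S100a8 above in 1 lane, S100a9 in 1 and Cxcr2 in 3, and Camp and Il1r2 in none. Their summed normalized count was 31.5 to 173 in control lanes and 29.5 to 54.7 in BDS lanes. The same number of probes at each lane's negative mean, scaled alike, would sum to 42.8 to 340 in control lanes and 24.8 to 62.6 in BDS lanes. Scaling raises this background in shallow lanes, and the ranges are not matched lane by lane. Cxcr2, with up to 67 raw counts, was above the limit only in BDS 17, BDS 24 and BDS 59. S100a8 was above it only in BDS 17 and S100a9 only in control 69. Which cells gave these counts was not tested.

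Csf2rb, the shared beta chain, stood at 2529.7 normalized counts in control 1, 3002 in control 18, 1706 in control 40, 1249 in control 52 and 2469 in control 69. In BDS pups it was 1782 (pup 11), 1661 (pup 17), 1766 (pup 24), 1246 (pup 38) and 1938 (pup 59). BDS values covered a narrower range than control values and lay below the control mean in 5 of 5 pups, but control 40 and control 52 were as low as BDS pups. With means of 2191 ± 702 and 1679 ± 262 (SD, n = 5 each), the log2 fold change was -0.39 ± 0.23 (SE; edgeR adjusted p = 0.270). It was -0.53 without control 52 (edgeR adjusted p = 0.0878) and -0.25 without control 18 (edgeR adjusted p = 0.511). In the authors' deposited table the Csf2rb ratio was 0.68, with an unadjusted p of 0.0678.

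Csf2, the GM-CSF gene, exceeded the limit in 0 of 10 lanes and was not tested. Its raw counts were 3, 6, 15, 1 and 1 in control pups 1, 18, 40, 52 and 69, and 5, 16, 10, 16 and 9 in BDS pups 11, 17, 24, 38 and 59. The limits in these lanes ran from 13.9 to 26.3 counts, and BDS 17 came closest, with 16 against 16.7. No level and no fold change are given for Csf2, since both groups lie under the limit. The authors' deposited table puts it above background in 0% of samples.

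**Figure D2:**
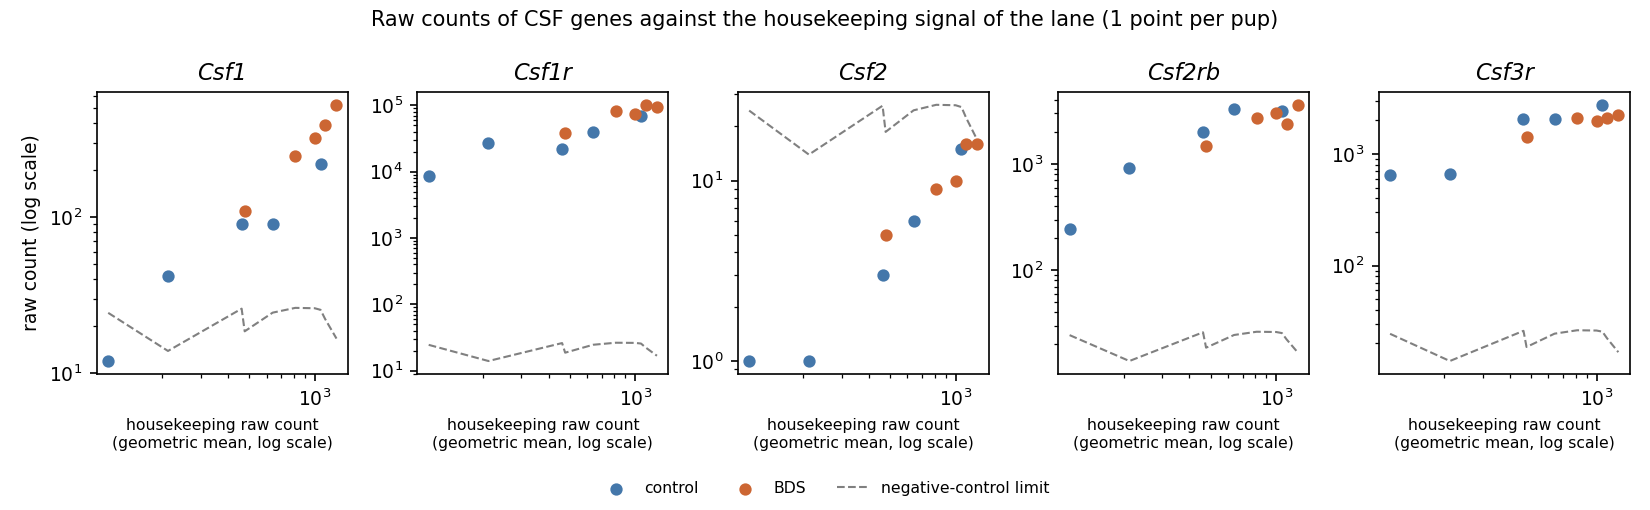
Raw counts of the 5 CSF genes (y axis, log scale) against the geometric mean of 6 housekeeping genes in the same lane (x axis, raw counts, log scale), 1 point per pup, with the negative-control limit of each lane as a dashed line. Csf1 in control 52 (12 counts) and Csf2 in all 10 lanes lie under the limit, and at like depth the BDS points lie above the control points for Csf1 and below or among them for Csf3r.

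The members' counts can be read against the whole panel. No gene of the 283 passed an adjusted p of 0.05 in edgeR (0%), while 80 passed an unadjusted p under 0.05. By that looser rule 1 of the 4 tested members was higher in BDS (Csf1, where 19.4% of tested genes were) and 1 was lower (Csf3r, where 8.83% were). Those 80 genes were 55 higher and 25 lower, and both the number of genes past that p and their split moved with the scaling of lanes. The calls were 36 higher to 39 lower with TMM factors, 33 to 40 with median-of-ratios factors, 128 to 0 with positive controls alone, and 25 to 49, 43 to 33, 64 to 17 or 76 to 12 when Sdha, Oaz1, Gapdh or Polr1b was left out. The median log2 fold change of all tested genes moved with it, from 0.089 as reported to -0.039 under TMM, to -0.088 when Sdha was dropped and to 1.35 under positive controls alone. Relative to that median, Csf3r stayed between -0.88 and -0.78 and Csf2rb between -0.58 and -0.46 over the 12 scalings, and Csf1r between 0.062 and 0.17. Scaling shifts a gene and the median nearly alike, so these narrow ranges were built in and lend the fold changes no support. DESeq2 with the same housekeeping factors called 25 genes at an adjusted p of 0.05, with Csf1 (adjusted p = 0.00955) and Csf3r (adjusted p = 0.0303) among them.

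Pups of similar depth can be set side by side. Control 1 and BDS 11 had housekeeping signals of 461 and 477 raw counts, and control 40, at 1060.3, lay between BDS 24 at 997 and BDS 38 at 1113. In the first pair Csf1 was at 114 in the control pup and 132 in the BDS pup, Csf1r at 27551 and 46807, Csf2rb at 2529.7 and 1782, and Csf3r at 2575 and 1709. In the second comparison Csf1 was at 119.6 in control 40 against 186 and 202, Csf1r at 37054 against 42319.8 and 52755, and Csf3r at 1502 against 1145 and 1079.8. Csf2rb, at 1706 in control 40, lay between BDS 24 (1766) and BDS 38 (1246). Direction was thus the same at both depths for Csf1, Csf1r and Csf3r, but these are single pups with no test. Fitted without control 52, control 69 and BDS 17, a choice made after seeing the data, the log2 fold changes were 0.73 ± 0.23 for Csf1, 0.58 ± 0.16 for Csf1r, -0.52 ± 0.22 for Csf2rb and -0.54 ± 0.23 for Csf3r (SE, n = 3 control and 4 BDS; edgeR adjusted p from 0.164 to 0.182).

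Ratios of members within a lane do not depend on how the lane is scaled. Probes may differ in efficiency, so only the difference of a ratio between pups is read. Csf1 per 1000 Csf1r counts was 4.13, 2.27, 3.23, 1.41 and 1.58 in control pups 1, 18, 40, 52 and 69, and 2.82, 5.56, 4.39, 3.83 and 3.003 in BDS pups 11, 17, 24, 38 and 59. The groups overlapped through control 1 and control 40, and the log2 difference was 0.71 ± 0.35 (SE, n = 5 each). In control 52 the ratio rests on 12 Csf1 counts at background. With the lane's negative mean subtracted it fell to 0.10 there. The subtracted ranges were 0.10 to 3.67 in control pups and 2.59 to 5.46 in BDS pups, again overlapping. Ligand relative to receptor thus separated the groups less cleanly than Csf1 alone.

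Csf3r per 1000 Csf1r ran from 24.9 to 93.5 in control pups and from 20.5 to 36.5 in BDS pups, a log2 difference of -0.99 ± 0.36 (SE, n = 5 each). Control 69, with the highest Csf1r, was the only control pup inside the BDS range. Csf1 per 1000 Csf2rb ran from 27.0 to 70.1 in control pups and from 74.0 to 162 in BDS pups without overlap, by 1.29 ± 0.30 on the log2 scale. With the lane's negative mean subtracted the ranges were 3.74 to 66.2 and 68.5 to 159, again without overlap. Of the 6 ratios formed among the 4 tested members, this was the only one whose groups did not overlap. Its closest pups were control 40 (70.1) and BDS 11 (74.0), and counting error was not carried into the ratios. Csf1 per 1000 Csf3r ran from 18.6 to 79.6 and from 77.1 to 236 (log2 difference 1.70 ± 0.45), Csf2rb per 1000 Csf1r differed by -0.57 ± 0.37 and Csf2rb per 1000 Csf3r by 0.41 ± 0.39. With the negative mean subtracted, Csf1 per 1000 Csf3r ran from 1.38 (control 52) to 75.2 and from 71.5 to 233. The log2 differences of all Csf1 ratios include control 52, where Csf1 lay at background. All 6 pairs were formed with the members' values known and carry no test.

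**Figure D3:**
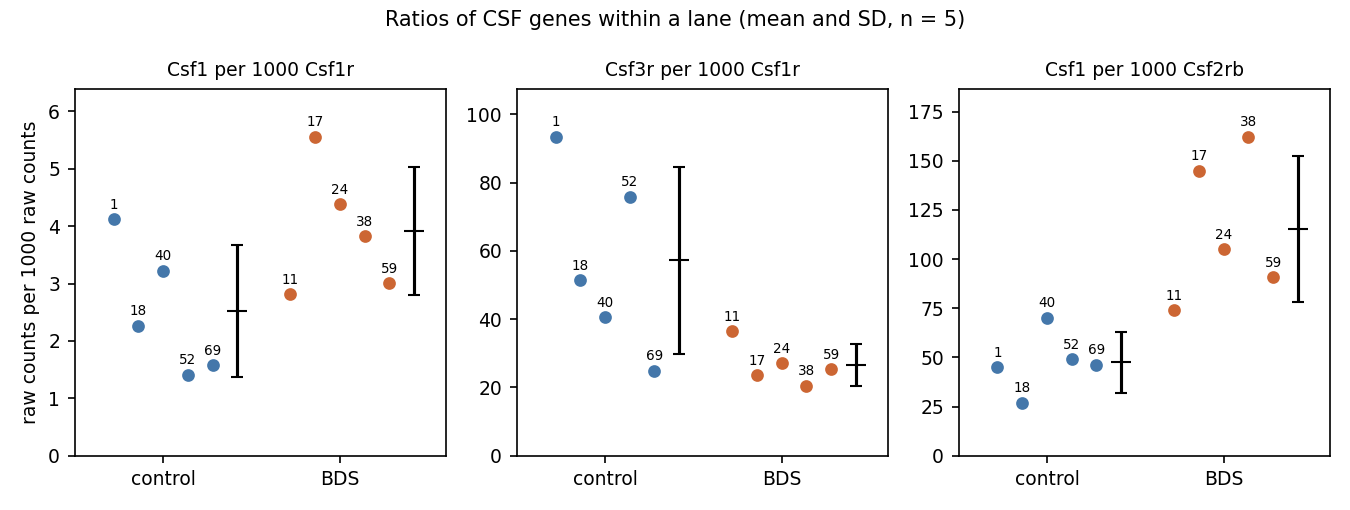
Raw counts of one gene per 1000 raw counts of another in the same lane (y axis, from 0), for Csf1 over Csf1r, Csf3r over Csf1r and Csf1 over Csf2rb, 1 numbered point per pup with the mean and SD of 5. Csf1 over Csf2rb separates the groups (27.0 to 70.1 against 74.0 to 162), and the other ratios overlap.

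Genes that carry CSF receptor signals were then listed, 31 in all, of which 19 were on the panel and 18 were tested. None passed an adjusted p of 0.05 in edgeR. At an unadjusted p under 0.05 there were 5 (27.8%, beside 28.3% over all tested genes), 3 higher and 2 lower in BDS, with a list median of 0.19 beside 0.089 over all genes. With lane depth as a covariate the count was 1, and without BDS 17 or without BDS 38 it was 3. The kinase gene Fyn was at 112 ± 21.3 normalized counts in control and 214 ± 69.1 in BDS (SD, n = 5 each), 0.96 ± 0.25 apart on the log2 scale (SE; adjusted p = 0.0642 in edgeR). Socs3, a feedback inhibitor of cytokine receptors, was at 175 ± 89.3 and 329 ± 142, with 0.94 ± 0.37 (edgeR adjusted p = 0.132). Src, a kinase that binds activated Csf1r, was at 175 ± 38.7 and 113 ± 20.0, with -0.61 ± 0.22 (edgeR adjusted p = 0.126). Jak1, a cytokine receptor kinase, was at 190 ± 212 and 77.7 ± 12.4, with -1.19 ± 0.53, or 0.30 with lane depth as a covariate.

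Partners of the beta chain did not stand out by that rule. Jak2, the kinase bound to Csf2rb, had a log2 fold change of -0.18 ± 0.20, and the STAT5 genes, its targets, had 0.46 ± 0.23 for Stat5a and 0.30 ± 0.19 for Stat5b (SE, n = 5 each). Stat3, which G-CSF receptors activate, was at -0.24 ± 0.29 and the phosphatase gene Ptpn6, which dampens these receptors, at -0.23 ± 0.17. Syk was at 0.35 ± 0.23, Btk at -0.27 ± 0.27 and Mapk14 at -0.82 ± 0.51. Tyrobp, an adaptor that microglial receptors share, was at -0.23 ± 0.29 and its partner Trem2 at 0.28 ± 0.18. With lane depth as a covariate the direction turned for Stat3 (0.21), Btk (0.32), Mapk14 (0.56) and Tyrobp (0.39), and Stat5a (0.21), Syk (0.015), Ptpn6 (-0.11) and Jak2 (-0.37) moved by over 1.5 times.

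Of 12 transcription factors of macrophage identity, 6 were on the panel and all 6 were tested. None passed the adjusted threshold. At an unadjusted p under 0.05 there were 2 (33.3%, beside 28.3% over all tested genes): Ikzf1 was higher (0.48 ± 0.18) and Ets1, named after its value was seen, was lower (-1.06 ± 0.47). Ets1 was above the limit in 4 lanes, with raw counts of 11 to 37, and stood at -0.24 with lane depth as a covariate. Runx1, which acts at the Csf1r gene, was at -0.054 ± 0.27, Irf8 at 0.50 ± 0.27 and Cebpb at -0.043 ± 0.44 (SE, n = 5 each), which became -0.51, 0.67 and 0.76 with that covariate. Among 15 related growth factors and receptors 5 were on the panel. Il3 and Il5, ligands whose receptors use Csf2rb, and Kit, a receptor kinase of the same family as Csf1r, exceeded the limit in 0 lanes. Pdgfb was at -0.18 ± 0.18 and its receptor gene Pdgfrb at 0.21 ± 0.27, or -0.17 with the covariate. Il34, Csf3, Csf2ra, Csf2rb2, Flt3, Lyn and Spi1 were not analysed here.

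Profiles over the 10 pups were compared by the root mean square difference of log2 normalized counts after centring each gene, a distance that also reflects lane depth and needs no group labels. Nearest to Csf1 were the proteasome subunit gene Psmb7 (0.21), the chemerin receptor gene Cmklr1 (0.23) and the complement gene C1qa (0.23), where the median distance over tested genes was 0.65. Csf1r was nearest to C1qb (0.16), Trem2 (0.17) and Stat5b (0.21), with a median of 0.52. For Csf2rb the nearest were Ctnnb1 (0.16), the gene of beta-catenin, Tgfbi (0.19) and the integrin gene Itgam (0.22), with a median of 0.62. Csf3r was nearest to Hlx (0.22), Icam4 (0.22) and Ikbkap (0.25), with a median of 0.72. No gene was among the 3 nearest of more than 1 member.

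Other cell types were followed through their marker lists, whose part in these results was not tested. T cell markers had 0 of 9 panel genes with enough lanes for a test, with a summed normalized count of 78.3 to 342 in control lanes and 50.8 to 90.7 in BDS lanes (64.2 to 511 and 37.2 to 93.9 for as many probes at the negative mean), Cd4 highest, and Cd3d, Cd3e, Cd2, Cd28 and Zap70 above the limit in no lane. Mast cell, basophil and eosinophil markers had 0 of 3 (15.2 to 71.4 and 13.3 to 27.97, with background of 21.4 to 170.2 and 12.4 to 31.3, Ccr3 highest, Kit and Fcer1a never above). Monocyte markers, with 2 of 5 tested and Cd14 highest, summed to 1555 to 3186 in control lanes and 1935 to 3445 in BDS lanes, with Spn never above. The other tested one, Ccr2, was above the limit in 9 lanes, at 75.1 ± 15.4 in control and 113 ± 19.1 in BDS (SD, n = 5 each). The log2 fold change was 0.59 ± 0.23 for Ccr2 and 0.29 ± 0.22 for Cd14 (SE; edgeR adjusted p = 0.137 and 0.393). B cell markers had 2 of 6 tested (963 to 1518 and 1379 to 1918), of which Blnk was highest and Ms4a1 and Pax5 were never above. The tested ones, Blnk and Cd79b, were above the limit in 10 lanes. Their log2 fold changes were 0.40 ± 0.20 and -0.14 ± 0.22 (SE; edgeR adjusted p = 0.198 and 0.676). Vascular markers, 3 of 4 tested with Pecam1 highest, summed to 765 to 1685 and 990.1 to 1085, and neural markers, 2 of 2 with Mbp highest, to 88.7 to 209 and 74.9 to 155. The vascular sum joins genes of opposite direction. The log2 fold change was 0.97 ± 0.37 for Cdh5, -0.56 ± 0.24 for Pecam1 and -0.42 ± 0.24 for Cd34 (SE; edgeR adjusted p = 0.128, 0.156 and 0.258). At an unadjusted p under 0.05 in edgeR, 1 was higher and 1 lower (66.7%, beside 28.3% over all tested genes).

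**Figure D4:**
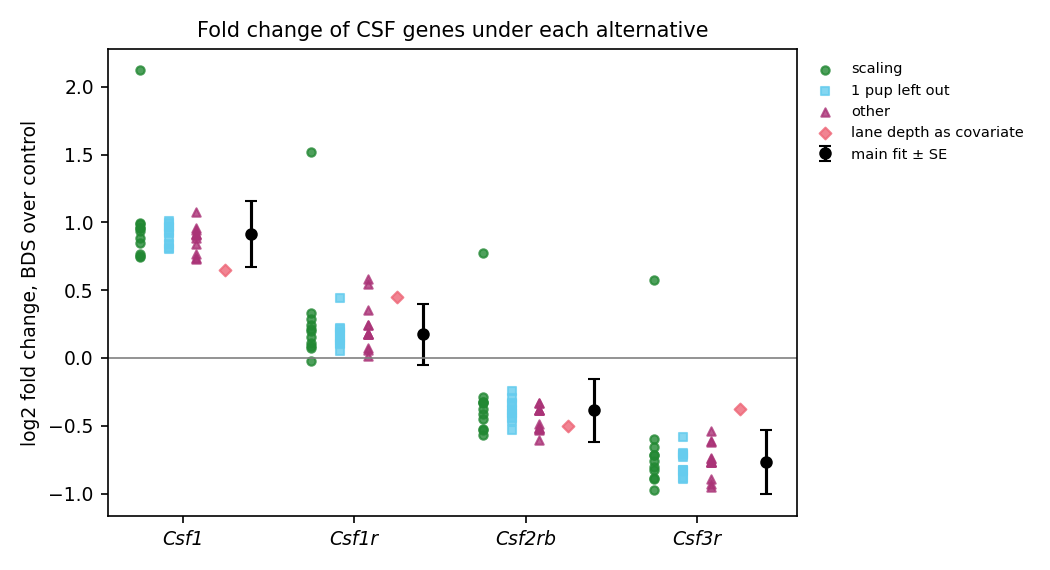
Log2 fold change of BDS over control (y axis, 0 is no difference) for the 4 tested CSF genes: black points give the value as reported with its SE, and coloured points each alternative (scalings, 1 pup left out, lane depth as a covariate, other settings). All Csf1 points lie above 0, Csf2rb and Csf3r points lie below it but for scaling to positive controls alone (0.77 and 0.57), and Csf1r points lie from -0.024 to 1.52.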

How the data were processed

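Per the labels' protocols, 2 ng of RNA per pup were made into cDNA, which went through 5 PCR rounds before hybridization to the nCounter mouse immune panel. One deposited table gives unscaled barcode counts of 545 endogenous and 14 housekeeping genes and of 8 negative and 6 positive control probes; the software that made them is not given in the sources used here. A further table deposited by the authors gives scaled, rounded counts, handled as a score. Per the series' design text the scale came from positive controls and 5 housekeeping genes, of which 6 are named; the scores matched raw counts scaled to those 6 without Sdha (SD of the log2 factor 1.35e-05, next 0.114). That table's percent of samples above background, ratio of means (fold change) and unadjusted p-value were copied as the authors deposited them.

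The raw counts entered edgeR's two-sided quasi-likelihood test (edgeR 4.0.16, R 4.3.3) with no covariate and with the geometric mean of the 6 named housekeeping genes as lane size. A gene was tested if 4 or more of the 10 lanes (40%) held it more than 2 SD over the negative probes' mean, which left 283 genes, and p-values were adjusted by Benjamini-Hochberg over them. Each SE was obtained by dividing the log2 fold change by F's square root. Normalized counts are raw counts over the lane size, rescaled to its geometric mean; log2 values use a pseudocount of 1. limma 3.58.1 and DESeq2 1.42.0 served as alternatives, beside other scalings, filters, a depth covariate and left-out pups. On simulated data for this comparison (10 runs of 545 genes) edgeR called 70.6% of genes changed 2-fold and 29.6% of those changed 1.5-fold at an adjusted p under 0.05. Each run changed 200 genes, in both directions, and was fitted with the same lane factors that generated its counts. These shares therefore leave out any error in the scaling of lanes and hold only for that number of changed genes.

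The lanes held between 76237 and 968930 endogenous counts. They follow PCR without molecular identifiers, so intervals cover counting error only. No pair of lanes agreed within sampling noise (chi-square per degree of freedom at least 22.8). Members, lists and rules were chosen with earlier results of these data known. Named are the members, fixed genes of each list, the highest marker of each list and the 3 nearest profiles of each tested member. Ets1 and the further marker names were added after their values were seen. Some genes of the lists are counted but not reported here by name.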

Additional observations from a re-analysis of the deposited data

How the results depend on the processing

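No paired analysis was possible because the groups share no pup number. Over 34 alternatives, 1 of them (without control 52, control 69 and BDS 17) chosen after seeing the data, Csf1 stayed higher in BDS and no alternative put Csf1r past the threshold. Csf1r turned to -0.024 without Sdha in the scaling, and with positive controls alone, where the panel median was 1.35, Csf2rb turned to 0.77 and Csf3r to 0.57. Csf1 passed an adjusted p of 0.05 without Gapdh (0.99) or Polr1b (0.996) in the scaling, in limma with sample weights (0.96) and in DESeq2 with housekeeping (0.905) or its own factors (0.74). Csf3r passed with sample weights (-0.62) and in DESeq2 (-0.77 and -0.89), and Csf2rb with sample weights (-0.61). With 1 pup left out, Csf1 ran from 0.80 to 1.01, Csf3r from -0.89 to -0.58, Csf2rb from -0.53 to -0.25 and Csf1r from 0.049 to 0.44; Csf1 and Csf3r passed without control 40 or without BDS 11. Genes at an adjusted p under 0.05 numbered 0 as reported, 14 with positive controls alone, 12 without Gapdh, 15 without Polr1b, 10 among genes above the limit in all 10 lanes, 85 with sample weights, 25 and 31 in DESeq2, and 0 to 48 with 1 pup left out (48 without control 40, 19 without BDS 11). Those at an unadjusted p under 0.05 numbered 80 as reported, 128 with positive controls alone, 139 with no filter, 122 with sample weights, 36 with lane depth as a covariate, and 45 (without BDS 17) to 108 with 1 pup left out. Signalling genes at that level numbered 5 as reported, 3 on the authors' scores, 1 with lane depth, 8 without both lowest lanes, and 3 to 6 with 1 pup left out. The cause of these moves was not tested. Csf2, under the limit in every lane, is given no fold change, although the fit with no filter held it among 545 genes, and Csf1 has no value in the set above the limit in all 10 lanes. Depth limits Csf1 in control 52, where it lay at background, and Csf2 in all 10 lanes.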

Other observations

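Csf2 lay under the negative-control limit in every lane, yet its raw counts never fell as the housekeeping signal of the lane rose. From the shallowest to the deepest lane they were 1 (control 52), 1 (control 69), 3 (control 1), 5 (BDS 11), 6 (control 18), 9 (BDS 59), 10 (BDS 24), 15 (control 40), 16 (BDS 38) and 16 (BDS 17). Of the 161 panel genes above the limit in no lane, Csf2 was the only 1 with this order, and none of the 8 negative probes had it. As a class these 161 genes also followed lane depth, with a median Spearman rho of 0.57 over the 10 lanes (from -0.27 to 0.99), against 0.26 for the negative probes (from -0.24 to 0.60), so the tracking of depth under the limit was not particular to Csf2. Control and BDS lanes were only partly mixed along the order. Control 52, control 69 and control 1 were the shallowest, and BDS 38 and BDS 17 the deepest. The order of depth is thus in part an order of groups. The pattern was noticed after the values were seen and carries no test, and counts this small have wide counting intervals (0.0253 to 5.57 for a count of 1, exact Poisson 95%).

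Csf1, in the same order of lanes, had raw counts of 12, 42, 91, 109, 90, 248, 321, 220, 390 and 524. The only falls were at control 18 and control 40, each a control pup following a BDS pup of lower or similar depth.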
